A study of Mus musculus with 4 samples.

Results

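Matrix metalloproteinases (MMPs) and tissue inhibitors of metalloproteinases (TIMPs) are described here in inflamed gut tissue of mice. The 10 genes are Mmp2, Mmp3, Mmp10, Mmp11, Mmp12, Mmp13, Mmp14, Timp1, Timp2 and Timp3. They were chosen by name, as every non-control probe whose RefSeq accession belongs to 1 of these symbols. That gave 13 of 39429 probes and 10 of 20659 named genes. Mmp11, Mmp12 and Timp2 have a pair of probes each and the other genes have 1.

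RNA of lamina propria lymphocytes, taken from the tissue layer beneath the gut lining, was hybridised to 1-colour Agilent arrays. Colitis was induced in C57BL6 mice by DSS (dextran sulfate sodium), which injures the colon lining, and samples date from day 10. The 4 groups were Stat4-/- given DSS and LIF (leukemia inhibitory factor, an interleukin-6 family cytokine), Stat4-/- given DSS, wild type given DSS and LIF, and wild type given DSS. Every group received DSS, so groups are named below by LIF alone, and each had 1 array and 5 mice. Whether the RNA of those mice was pooled, which part of Stat4 is deleted and how LIF was given are not stated in the sources used here.

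MMPs are zinc-dependent endopeptidases that cut collagens and other matrix proteins, and they are made as inactive precursors. TIMPs bind their active site and block them. In the inflamed gut, fibroblasts, macrophages, neutrophils and epithelium are all known sources of MMPs, which are studied there for tissue injury and for healing.

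A level is the log2 processed signal of a probe minus the 75th percentile of its array, so that 0 is the brightness of the 75th percentile. That percentile was between 23.8 and 122.9 signal units, lowest for wild type with LIF and highest for wild type without LIF. A probe counts as measured where the scanner software marked it well above background. Errors given with levels are the error of the spot as that software estimates it, and they do not cover differences between mice or hybridisations. No group has a replicate, so no p-value was computed, and a difference is counted by its size, at 2-fold or more (a log2 difference of 1). One array, that of LIF-treated wild type, was unlike the rest, with a Pearson correlation of 0.80 to 0.82 with the others over 12674 probes, against 0.95 to 0.98 among the other 3. The arrays came from 3 scans, and only the pair without LIF shared a scan, so in the other comparisons scan and group cannot be told apart. The Stat4 probe gave levels of −0.48 and 0.31 in Stat4-/- with and without LIF, against 0.21 and −0.49 in wild type with and without LIF. It did not separate the genotypes, and the Stat4-/- arrays are called labelled knockout below.

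Of 12 lymphocyte markers between 10 and 12 were measured on each array, and markers of other cells were measured too. All 8 epithelial markers were measured on every array. Between 8 and 10 of 12 fibroblast markers, between 6 and 8 of 11 neutrophil markers and between 5 and 8 of 11 macrophage markers were measured. The fibroblast markers Pdgfra and Postn were not well above background on any array. In RNA from mixed cells, fewer cells of a type and less RNA per cell cannot be told apart.

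Most of the 10 genes were dim in these preparations. Mmp14 and Timp2 alone were measured on all 4 arrays. Mmp13 and Timp3 were measured on 3 arrays, Mmp12 on 2, and Mmp11 and Timp1 on 1. Mmp2, Mmp3 and Mmp10 were not well above background on any array. Of all named genes 39.5% had a measured probe on all 4 arrays and 29.3% on 0 arrays. By array, 5 of the 10 genes were measured in labelled knockout with LIF, 4 in labelled knockout without LIF, 2 in wild type with LIF and 7 in wild type without LIF. The last 2 numbers belong to the dimmest and the brightest array.

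**Figure D1:**
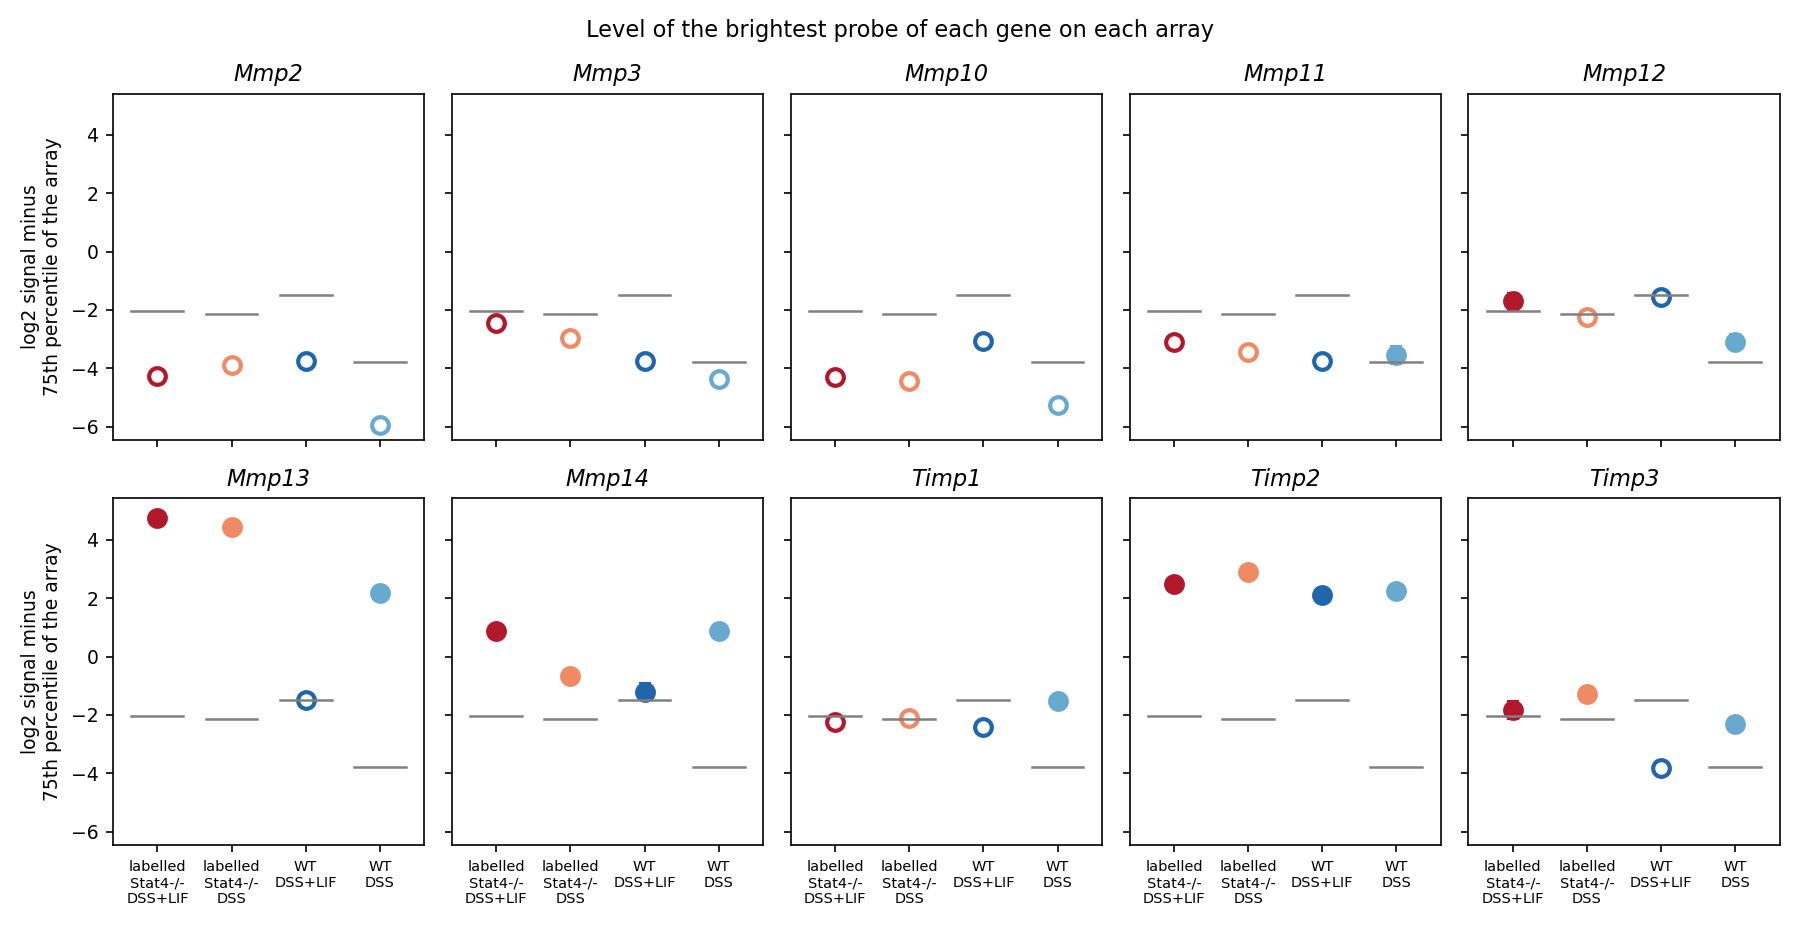
Level of the brightest probe of each gene (log2 signal minus the 75th percentile of the array, vertical axis) on the 4 arrays (horizontal axis). Filled points were well above background and carry the scanner software's error, open points were not, and grey dashes mark the dimmest level well above background on that array. Mmp13 is at 4.73 and 4.44 on the labelled knockout arrays, Timp2 lies within 2.11 and 2.91 on all 4, and Mmp2, Mmp3 and Mmp10 have open points alone.

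Of the members of the set in the chromosome 9 cluster of secreted MMPs, 1 was bright, Mmp13, the interstitial collagenase of rodents, which cuts fibrillar collagen. Its level was 4.73 (processed signal 1152 ± 115) in labelled knockout with LIF and 4.44 (981 ± 98.1) in labelled knockout without LIF. It was −1.49 (8.47 ± 1.92), not well above background, in wild type with LIF, and 2.17 (553 ± 55.3) in wild type without LIF. Both labelled knockout arrays were therefore above both wild-type arrays. Brighter than 95.9%, 95.6% and 89.2% of probes on the 3 arrays that measured it, Mmp13 had the highest rank of any MMP or TIMP probe of the set on the labelled knockout arrays. The labelled knockout levels differed from each other by 0.30 ± 0.20, and the lower one exceeded wild type without LIF by 2.27 ± 0.20. The authors' deposited table of log2 values had the same order, with 10.8 and 10.5 in labelled knockout against 4.32 and 8.22 in wild type.

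The other members of the set in that cluster were dim. Mmp12, the macrophage elastase, had 1 probe that was measured in labelled knockout with LIF (−1.70, signal 13.3 ± 2.68) and in wild type without LIF (−3.09, signal 14.5 ± 2.68). That probe was at −2.26 in labelled knockout without LIF and at −1.55 in wild type with LIF, without passing the background mark. The second Mmp12 probe, between 1.86 and 2.41 signal units, was not well above background anywhere, so the pair disagreed on whether the gene was present. Mmp3 and Mmp10, the stromelysins, which cut proteoglycans and activate other MMPs, had signals of 1.77 to 7.99 and of 2.12 to 3.24 units. Such signals bound these genes from above and carry no order between the arrays.

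RefSeq places 10 MMP genes side by side on chromosome 9 (GRCm38.p6, bases 7272514 to 7699585), and 9 of them had a named probe here. Of these, 4 were measured on at least 1 array, namely Mmp13 and Mmp12 at one end and Mmp8 and Mmp7 at the other. The neutrophil collagenase gene Mmp8 and the matrilysin gene Mmp7, which Paneth cells make, are not members of the set. In labelled knockout with and without LIF, Mmp8 was at 2.55 and 2.51 and Mmp7 at 0.46 and 1.19. Between Mmp12 and Mmp8 lie Mmp1b, Mmp3, Mmp1a and Mmp10, all with signals under the background mark on the 4 arrays. The 3 cluster genes measured in both arrays under DSS alone were all at least 2-fold higher in labelled knockout, beside 13.2% of all genes measured in that pair. Their log2 differences were 2.27 for Mmp13, 4.16 for Mmp8 and 1.38 for Mmp7.

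Promoter windows were at hand for 9 of the 10 genes and differed in their motifs, which the choice of the genes did not use. The 100 bases before the start site are shown for the 4 genes that were measured best and for the dim stromelysins, because the collagenase and the stromelysins share a motif that the others shown lack. Capitals mark an AP-1 motif (TGANTCA, the site of Fos and Jun proteins) or a GC box (GGGCGG or its complement). The sequences are from RefSeq (GRCm38.p6), each on the strand of its gene.
Mmp13, chr9:7272414-7272513, plus strand: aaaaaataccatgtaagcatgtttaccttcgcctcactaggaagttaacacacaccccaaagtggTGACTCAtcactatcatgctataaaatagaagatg
Mmp3, chr9:7445722-7445821, plus strand: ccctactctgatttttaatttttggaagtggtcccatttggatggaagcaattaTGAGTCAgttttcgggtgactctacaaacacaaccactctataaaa
Mmp10, chr9:7502242-7502341, plus strand: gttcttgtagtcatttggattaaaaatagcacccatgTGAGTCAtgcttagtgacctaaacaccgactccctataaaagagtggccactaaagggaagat
Mmp14, chr14:54431498-54431597, plus strand: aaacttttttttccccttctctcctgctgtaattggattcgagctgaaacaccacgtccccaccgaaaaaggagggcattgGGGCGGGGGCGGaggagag
Timp2, chr11:118355412-118355511, minus strand: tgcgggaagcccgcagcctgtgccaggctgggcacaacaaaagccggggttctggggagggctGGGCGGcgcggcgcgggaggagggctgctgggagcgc
Timp3, chr10:86300312-86300411, plus strand: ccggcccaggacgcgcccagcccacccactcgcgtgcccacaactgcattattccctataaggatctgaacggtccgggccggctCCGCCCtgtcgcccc

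In the 250 bases before the start, searched on both strands, AP-1 motifs were found in 4 of the 9 genes with a RefSeq window, namely Mmp3, Mmp10, Mmp13 and the second of the start sites of Mmp12. Each of these began 35 to 63 bases before the start. GC boxes were found in the other 5, Mmp11, Mmp14, Timp1, Timp2 and Timp3, and no gene had both. Over all 32851 RefSeq windows of this length, 6.75% held the AP-1 motif and 32.7% a GC box. A TATAAA motif, present in 12.4% of windows, was found in Mmp3, Mmp10 and Mmp13. The STAT motif TTCNNNGAA, present in 7.02% of windows, was found in 0 of the 9 genes. The AP-1 windows held 1 or 2 CpG dinucleotides each and the GC-box windows 6 to 21, beside a median of 6 over all windows. These are matches of letters. Mmp13, Mmp3 and Mmp10 hold the same AP-1 and TATAAA motifs, and of these only Mmp13 was measured.

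**Figure D2:**
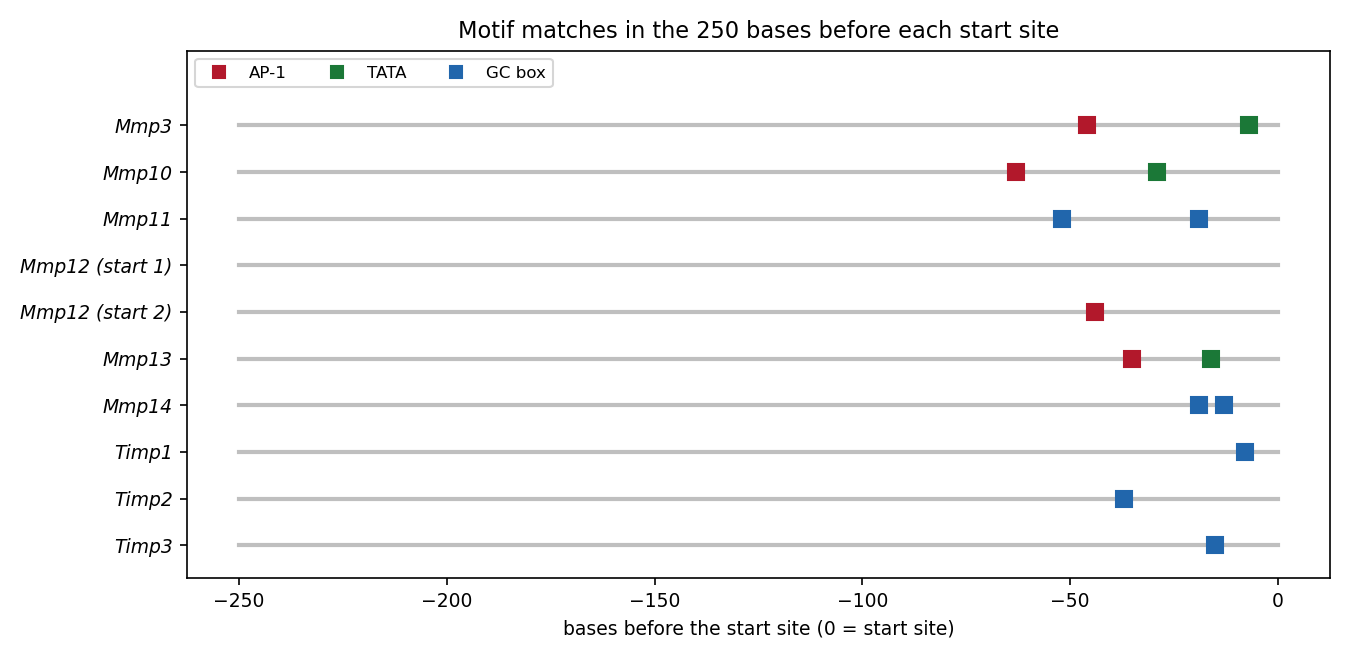
Motif matches in the 250 bases before each start site (bases before the start, horizontal axis) for the 9 genes with a RefSeq window, with both starts of Mmp12. AP-1 matches lie 35 to 63 bases before the start in Mmp3, Mmp10, Mmp13 and the second start of Mmp12, and GC boxes lie in Mmp11, Mmp14 and the 3 TIMP genes.

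Mmp14 encodes the membrane-anchored MMP that activates the Mmp2 precursor at the cell surface. Its level was 0.86 (signal 78.8 ± 8.20) in labelled knockout with LIF and −0.67 (28.5 ± 3.58) in labelled knockout without LIF. It was −1.20 (10.3 ± 2.03) in wild type with LIF and 0.89 (228 ± 22.9) in wild type without LIF. Labelled knockout with LIF and wild type without it were the high arrays, so the genotypes overlap and so do the treatments. The high pair differed by 0.03 ± 0.21, and the low pair by 0.54 ± 0.34. The gap between the pairs was 1.53 ± 0.24. In wild type with LIF the Mmp14 signal lay close to the dimmest one well above background on that array, 8.45 units.

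Of the remaining MMPs, Mmp2, a gelatinase known from fibroblasts, was not well above background on any array. Mmp11, known as stromelysin-3, had 1 probe that passed the mark in wild type without LIF alone (−3.54, signal 10.5 ± 2.28), and on the other arrays it had 1.75 to 5.02 units. The second Mmp11 probe did not pass it on any array. The brightest array sets the lowest floor on this scale, −3.79 in wild type without LIF against −1.49 to −2.13 on the others, so a gene measured there alone is not shown to be higher there.

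Among the inhibitors, Timp2, which also carries the Mmp2 precursor to Mmp14, was bright and even. Its level was 2.49 (signal 244 ± 24.5) in labelled knockout with LIF and 2.91 (340 ± 34.1) in labelled knockout without LIF, against 2.11 (102 ± 10.4) and 2.26 (590 ± 59.0) in wild type with and without LIF. The 4 levels spanned less than 1 log2 unit, with both labelled knockout arrays above both wild-type arrays. In that order labelled knockout without LIF exceeded labelled knockout with LIF by 0.42 ± 0.20, and the next steps were 0.23 ± 0.20 and 0.16 ± 0.21. The second Timp2 probe was measured in wild type without LIF alone (−1.95, signal 31.9 ± 3.84) and had 1.83 to 4.38 units on the other arrays, so the 2 probes disagreed.

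Timp3, which binds to the matrix, was at −1.83 (signal 12.2 ± 2.51) in labelled knockout with LIF and −1.29 (18.5 ± 2.77) in labelled knockout without LIF. It was not well above background in wild type with LIF (1.70 units) and was at −2.30 (24.9 ± 3.16) in wild type without LIF. Its neighbouring levels differed by 0.54 ± 0.37 and 0.47 ± 0.35. Timp1, the TIMP best known for induction in inflammation, was measured in wild type without LIF alone, at −1.51 (signal 43.2 ± 4.80). It had 9.15 and 10.6 units in labelled knockout with and without LIF, and 4.44 units in wild type with LIF.

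The first comparison set labelled knockout against wild type, both with DSS and without LIF. Of the 4 members measured on both arrays, 2 were at least 2-fold higher and 1 was at least 2-fold lower in labelled knockout. Of the 10527 genes measured in this pair, 13.2% were higher and 6.89% lower by that size (normexp background correction with an offset of 50 gave 322 higher and 840 lower genes). With so few members these counts describe single genes. Mmp13 was 4.82-fold higher (log2 difference 2.27 ± 0.20), and 98.8% of all measured genes had a lower difference. Timp3 was 2.01-fold higher (1.01 ± 0.28), with the count at its edge, and Timp2 was 1.57-fold higher (0.65 ± 0.20). Mmp14 was 2.95-fold lower (−1.56 ± 0.23), and 1.50% of genes had a lower difference. Timp1 had a bound of 1.50-fold lower, set against its own level in labelled knockout, which lay above the dimmest measured one there. With normexp (offset 50) that bound was 0 on the log2 scale. Mmp11 and Mmp12 gave no bound. Such bounds reached 2-fold higher in 4.17% and 2-fold lower in 5.59% of 3594 genes measured on 1 array of the pair, and in 0 members. The median of the 4 measured members was 0.83, beside 0.07 for all genes.

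The collagenase and the membrane-anchored MMP thus stood at opposite ends of this comparison, and the difference between their log2 differences was 3.83. Against Timp2, Mmp14 was lower by 2.21 log2 units more and Mmp13 was higher by 1.62 more. The second Timp2 probe went the other way from the first, at least 1.14-fold lower in labelled knockout. The signs of Mmp13, Mmp14 and Timp3 held under the 5 other scalings and sources of values drawn in the plot of differences by processing, but with normexp (offset 50) Mmp14 was at −0.90 and Timp3 at 0.72, under the size counted.

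**Figure D3:**
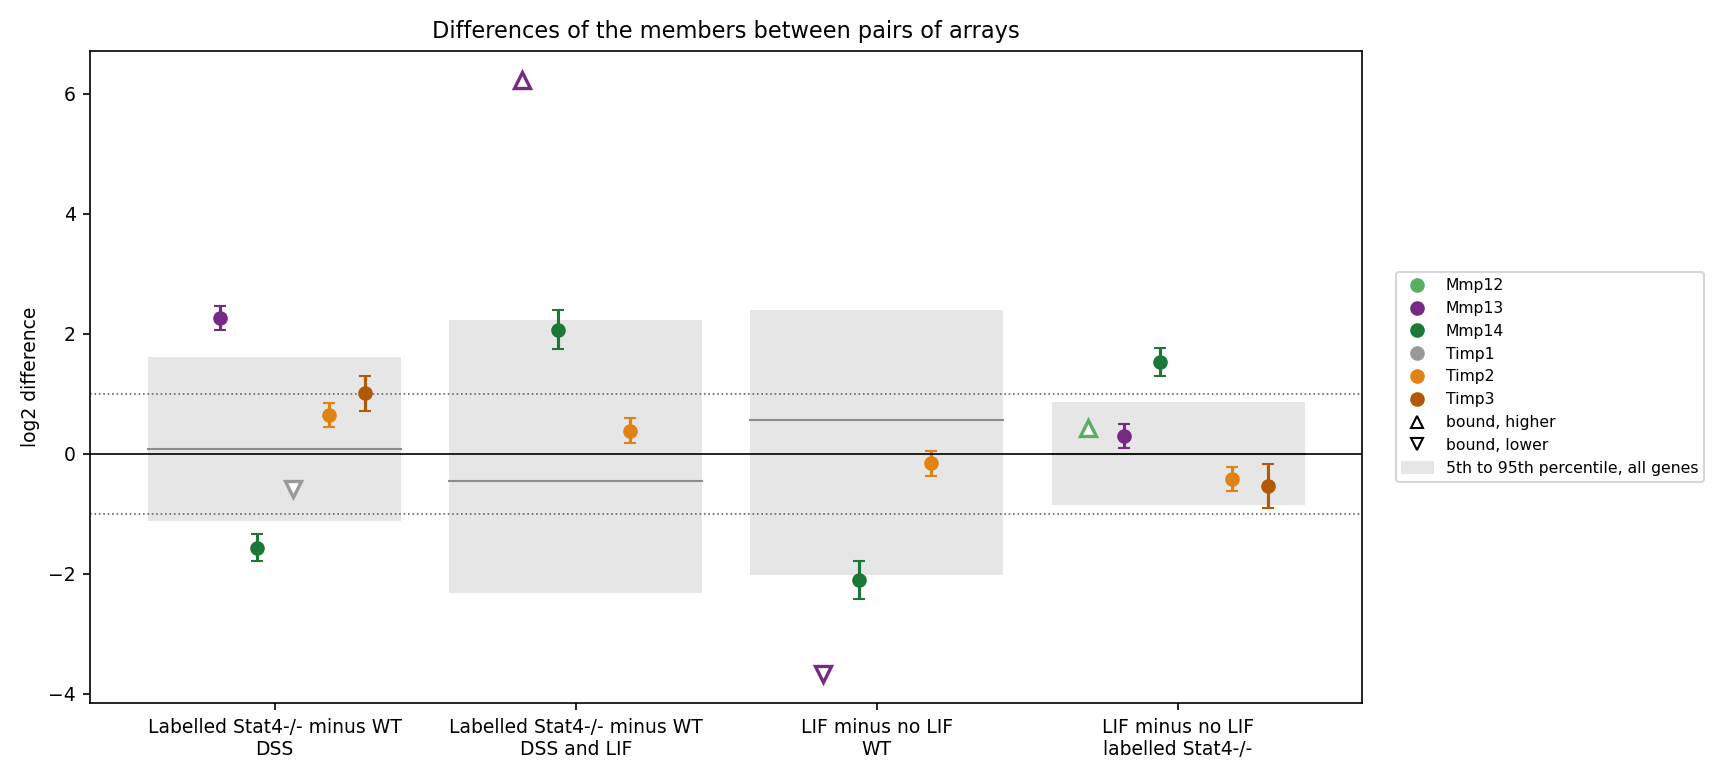
Log2 differences (vertical axis) of the members in the 4 comparisons of array pairs (horizontal axis). Points are measured on both arrays with the error propagated from the scanner software, triangles are bounds for genes measured on 1 array, and grey bands span the 5th to 95th percentile of all measured genes with their median. Mmp13 (2.27) lies above and Mmp14 (−1.56) below the band under DSS, and Mmp14 (1.53) lies above it for LIF in labelled knockout.

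Other genes of matrix turnover were compared in the same pair of arrays. Of 17 other MMP and TIMP genes 16 had a probe and 5 were measured, with 3 higher by 2-fold or more, 0 lower and a median of 1.38. Those 3 were Mmp8 (17.9-fold), Mmp7 (2.61-fold) and Mmp25 (2.86-fold), which encodes a membrane-anchored MMP of neutrophils. Mmp25 lay near the floor, at −1.73 in labelled knockout and −3.25 in wild type, where the dimmest measured levels were −2.13 and −3.79. Of 28 other proteases and inhibitors around the cell surface 16 were measured, with 4 higher, 0 lower and a median of 0.01. The 4 were Plaur, the receptor of urokinase (3.22-fold), the cathepsin genes Ctsl (2.94-fold) and Ctsk (2.86-fold), and Adam12 (2.31-fold). Another 3 of the list, Adamts1, Adamts2 and Adamts4, which cut proteoglycans or procollagen, were measured in labelled knockout alone and were higher by bounds of 2.18, 1.86 and 2.24 log2 units. Of 25 matrix proteins 12 were measured, with 5 higher, 1 lower and a median of 0.88. The 5 were the fibulin gene Fbln2 (7.44-fold), Col1a1 (5.40-fold), Col3a1 (4.41-fold), the fibronectin gene Fn1 (3.35-fold) and Thbs1 (2.39-fold), and the lower one was the proteoglycan gene Vcan (2.11-fold). Col1a1, Col1a2, Col3a1, Postn and Fbln1 of this list are also among the fibroblast markers below, so the lists are not independent. Collagens of the first and the third type are substrates of Mmp13.

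Of 32 cytokines and transcription factors known to act on MMP genes 21 were measured, with 4 higher by 2-fold or more, 0 lower and a median of 0.47. They were Lif (4.27-fold), the related cytokine gene Osm (4.12-fold), and the AP-1 subunit genes Fosl1 (2.64-fold) and Fosl2 (2.09-fold). Fosl1 lay near the floor, at −1.93 in labelled knockout and −3.33 in wild type, where the dimmest measured levels were −2.13 and −3.79. The other AP-1 subunits, Fos (−0.59), Fosb (0.06), Jun (0.14), Junb (0.12) and Jund (0.23), had log2 differences under 1. Tgfb2, measured in labelled knockout alone, was at least 3.36-fold higher. Tnf and Il6 were measured in wild type alone, at −3.05 and −2.17, and gave no bound, so no direction can be read. Other cytokine genes of the list had the same status. Il1b had a log2 difference of 0.79.

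Markers of several cell types differed between the same arrays. Of 10 measured fibroblast markers 6 were at least 2-fold higher and 0 lower in labelled knockout, and their summed signal, in units of the 75th percentile, was 22.1 against 8.95 in wild type. Of 3 measured smooth muscle markers 1 was higher, Tagln (log2 difference 2.14), whereas Acta2 (0.20) and Cnn1 (0.26) differed less. The list summed to 11.8 against 3.30, a sum that followed Tagln, at 3.43 against 1.29. Myh11 was measured in wild type alone and gave no bound, and Des and Actg2 were not well above background on either array. Of 7 measured neutrophil markers 5 were higher and 0 lower, and they summed to 3221 against 554. That sum followed S100a8, Retnlg and S100a9, at 10.7, 9.53 and 9.36 in labelled knockout. Csf3r (log2 difference −0.03) and Elane (−0.20) differed less. Macrophage markers summed to 20.9 against 21.2, with 0 of 7 higher or lower, and Cd163, Mertk and C1qa were not well above background on either array. Lymphocyte markers summed to 25.1 against 23.0. Epithelial markers summed to 23.0 against 30.5, with 0 of 8 higher and 1 lower. The part of these markers in the differences of Mmp13, Mmp14 and Timp3 was not tested.

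**Figure D4:**
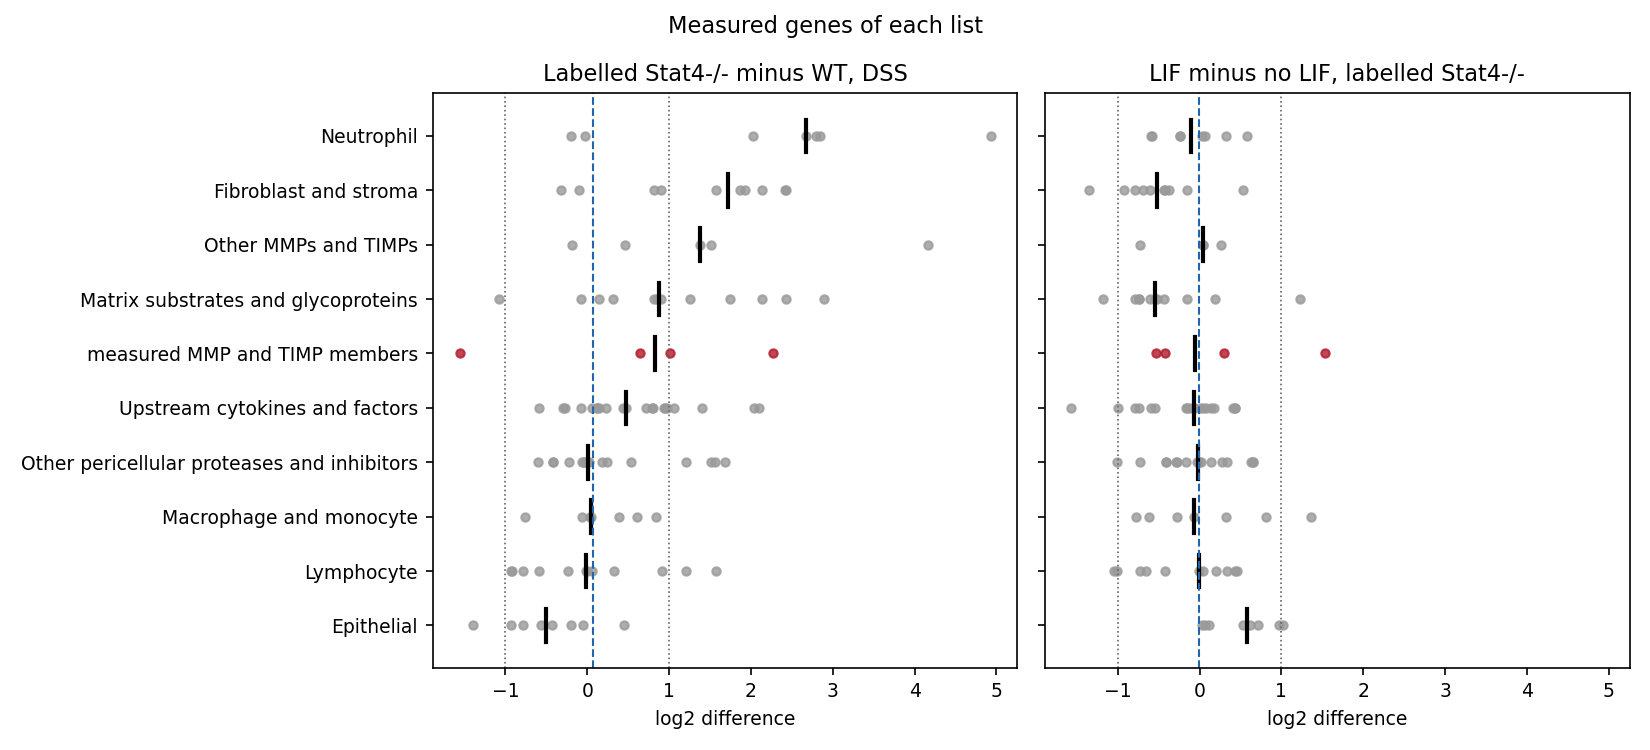
Log2 differences (horizontal axis) of the measured genes of each list (vertical axis) between labelled knockout and wild type without LIF (left) and with LIF against no LIF in labelled knockout (right). Dots are genes, black bars list medians, the dashed line the median of all genes. The matrix and fibroblast lists share genes, which are drawn in both. Under DSS the medians are 2.67 for neutrophil and 1.72 for fibroblast markers and 0.83 for the 4 measured MMP and TIMP members, and with LIF the fibroblast median is −0.52.

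LIF in the labelled knockout was asked about next, between arrays of separate scans. Of 4 measured members 1 was at least 2-fold higher and 0 were lower with LIF, beside 3.22% and 3.07% of 9789 genes (315 and 301, but 6 and 863 with normexp, offset 50). Mmp14 was 2.89-fold higher (1.53 ± 0.24), and 99.4% of genes had a lower difference. Mmp13 (0.30 ± 0.20), Timp2 (−0.42 ± 0.20) and Timp3 (−0.54 ± 0.37) had smaller differences, and Mmp12 was at least 1.35-fold higher, a bound that was 0 on the log2 scale with the mean over its probes. Bounds reached 2-fold higher in 8.51% and 2-fold lower in 8.67% of 1881 genes measured on 1 array, and in 0 members. The median of the measured members was −0.06, beside −0.01 for all genes. Against Timp2, Mmp14 was higher by 1.95 log2 units more.

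Other matrix genes were compared in this pair too. Of 4 other measured MMP genes 0 were 2-fold higher or lower. Of 16 other proteases and inhibitors 1 was lower, Adam12 (2.01-fold), and of 11 matrix proteins Fbln2 was 2.26-fold lower and Vcan 2.35-fold higher, with a median of −0.54. Tnc, a glycoprotein gene of the same list measured with LIF alone, had a bound of 2.38-fold higher. Vcan, like Mmp14, was lower in labelled knockout than in wild type without LIF. Of 19 cytokines and factors 1 was lower, Pdgfb (2.96-fold), a growth factor of fibroblasts. Fibroblast markers had 0 of 10 higher and 1 lower, and summed to 14.6 with LIF against 22.1 without. Smooth muscle markers summed to 4.63 against 11.8, macrophage markers to 24.2 against 20.9 and neutrophil markers to 2478 against 3221. The smooth muscle sum followed Tagln, at 1.95 with LIF and 3.43 without. Epithelial markers summed to 30.9 against 23.0, with 1 of 8 higher, 0 lower and a median log2 difference of 0.58. The part of these markers in the difference of Mmp14 was not tested. The values of this pair depended on the background correction. With normexp (offset 50) Mmp14 was at 0.44 and Mmp13 at −0.59, and without an offset Mmp14 was at 0.73, Mmp13 at −1.09, Timp2 at −1.48 and Timp3 at 0.54.

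**Figure D5:**
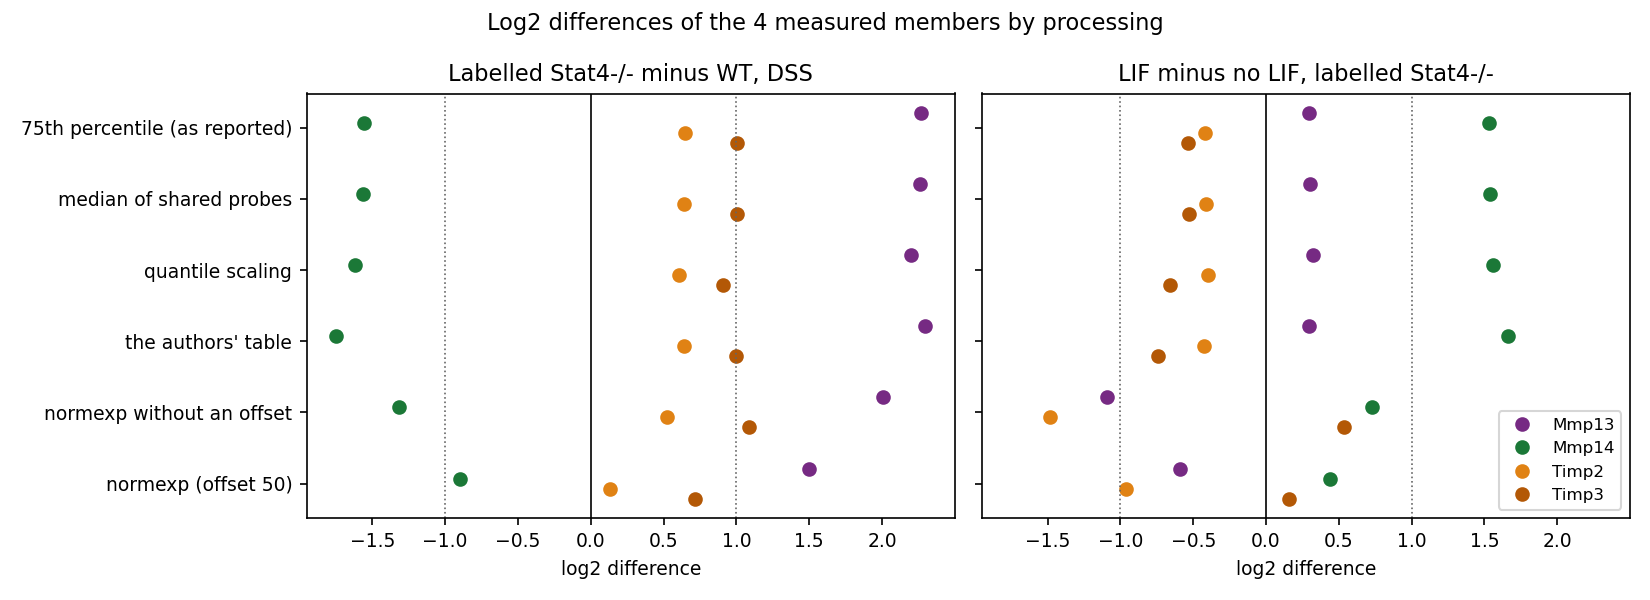
Log2 differences (horizontal axis) of Mmp13, Mmp14, Timp2 and Timp3 under 6 ways of processing (vertical axis), between the genotypes without LIF (left, labelled knockout minus wild type) and LIF in labelled knockout (right). On the left Mmp13 stays between 1.50 and 2.30, and on the right Mmp13 and Timp3 change sign under both normexp settings.

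LIF in wild type and the genotypes under LIF rest on the array that stood apart. The median log2 difference of all genes was 0.57 for LIF in wild type and −0.45 between the genotypes with LIF, and 0.05 and −0.17 with normexp (offset 50), so values are also given relative to it. With LIF in wild type, of 2 measured members 0 were at least 2-fold higher and 1 was lower, beside 34.5% and 13.7% of 8977 genes (3095 and 1226, but 759 and 1556 with normexp, offset 50). Mmp14 was 4.28-fold lower (−2.10 ± 0.32, or −2.67 relative to the median), and Timp2 was at −0.16 ± 0.21 (−0.73 relative to the median). Mmp13, measured without LIF alone, had a bound of 12.6-fold lower with LIF. That bound is set against its own level with LIF, −1.49 (8.47 ± 1.92 units), and carries the error of that dim spot. Of 5178 genes measured on 1 array of the pair, 11.2% had a bound of 2-fold or more lower and 4.98% higher. Mmp11, Mmp12, Timp1 and Timp3 gave no bound. Marker sums with LIF against without it were 5.48 against 789 for endothelium, 21.9 against 3.30 for smooth muscle and 36.7 against 23.0 for lymphocytes. They were 14.0 against 8.95 for fibroblasts, 41.4 against 30.5 for epithelium, 383 against 554 for neutrophils and 21.3 against 21.2 for macrophages. Of 5 measured macrophage markers 1 was at least 2-fold higher with LIF, Fcgr1 (2.62-fold), and 0 were lower. The endothelial sum followed Plvap, whose level was −1.07 with LIF and 9.61 without, and the smooth muscle sum followed Tagln, at 4.39 and 1.29. The fibroblast sum mostly followed Thy1, at 2.89 and 1.77, the brightest of that list on both arrays. Of 8 measured fibroblast markers 2 were at least 2-fold higher with LIF and 0 lower, with a median log2 difference of −0.05. Of 8 epithelial markers 3 were at least 2-fold lower with LIF, Epcam, Krt8 and Krt19, and 1 was higher, Krt20. The part of these markers in the differences of Mmp13 and Mmp14 was not tested.

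Under DSS and LIF, of 2 measured members 1 was at least 2-fold higher in labelled knockout and 0 were lower, beside 14.1% and 31.3% of 8351 genes. Mmp14 was 4.20-fold higher (2.07 ± 0.32, or 2.52 relative to the median) and Timp2 was at 0.39 ± 0.21 (0.83 relative to the median). Mmp13 had a bound of 74.7-fold higher, again set against its own dim level in wild type with LIF. Of 3238 genes measured on 1 array of the pair, 19.0% had a bound of 2-fold or more higher and 17.9% lower. With normexp (offset 50) Mmp14 was at 0.45 here and −0.91 for LIF in wild type, under the size counted, and Timp2 was at −0.48 here without an offset. With offset 50 the bounds of Mmp13 were 3.05 here and −2.14 for LIF in wild type on the log2 scale, in place of 6.22 and −3.66. Mmp13 was thus higher in labelled knockout under both treatments, though the pair with LIF rests on the array that stood apart, where Mmp13 was not measured. Mmp14 was lower under DSS and higher under DSS and LIF. Fibroblast markers summed to 14.6 in labelled knockout against 14.0 in wild type under DSS and LIF, and neutrophil markers to 2478 against 383. Of 8 measured fibroblast markers 3 were at least 2-fold higher in labelled knockout. Of these 8 markers 1 was lower, Thy1, at 1.29 against 2.89, so the near-equal sums hide differences in both directions. Endothelial markers summed to 1297 against 5.48, smooth muscle markers to 4.63 against 21.9, lymphocyte markers to 19.9 against 36.7 and macrophage markers to 24.2 against 21.3. Of 5 measured macrophage markers 0 were at least 2-fold higher and 1 was lower, Adgre1 (3.79-fold). Lyz2, a macrophage marker measured in labelled knockout alone, had a bound of 2.52-fold higher. Epithelial markers summed to 30.9 against 41.4, with 3 of 8 higher (Epcam, Krt8 and Krt19) and 1 lower (Krt20). The part of these markers in the differences of Mmp13 and Mmp14 was not tested.

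The genes whose pattern over the 4 arrays was most like those of Mmp14 and Timp2 were sought among 8045 genes measured on all of them, by the root mean square distance between centred log2 levels. For Mmp14 they were Naip1 (0.12), 4932412D23Rik (0.14) and Xntrpc (0.15). For Timp2 they were Gm4832 (0.02), Btbd3 (0.03) and Map7d1 (0.04). With 4 arrays and many genes, small distances arise easily, and they are given as a description.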

How the data were processed

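Each array's deposited scanner output gives the intensity of every spot. Agilent Feature Extraction made it, as version 11.0.1.1 according to the headers, whereas the submitters' processing notes name 9.1. Background had been subtracted from the processed signal, per the file headers. A deposited table holds log2 values of the same arrays, with equal upper quartiles and a floor in each column. How the authors normalised it is not stated in the labels, and its column medians were 3.31, 3.31, 2.54 and 3.31 for labelled knockout with and without LIF and wild type with and without LIF. These values correlated with the log2 scanner values at 0.969 to 0.991 across probes, so their scale is log2. Flags of the files mark spots as well above background, saturated or outliers. No non-control spot was saturated.

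Outlier spots were left out and log2 values of a probe's spots averaged (python 3.11.15, pandas 2.3.3). RefSeq accessions named 69.1% of probes through a gene table of GRCm38.p6. A gene took the probe with the highest mean level. It was measured in a pair of arrays where at least 50% of that probe's spots were well above background on both. A gene measured on 1 array alone got a bound, its level minus the higher of its own dim level and the dimmest level well above background on the other array. The code was tested on simulated arrays. Normexp (limma 3.58.1, R 4.3.3) used the median signal, since the files hold no mean signal. The alternatives were normexp with offset 50 and without, quantile scaling, scaling to the median of shared probes, no background filter, genes measured on all 4 arrays, the mean over probes, the authors' table and outlier spots kept. The members, lists and rule for named genes were chosen with earlier results of these data known. All 10 members are named, and of the 4 lists of related genes those at least 2-fold different under DSS or for LIF in labelled knockout, at most 5 a list. Genes bounded on 1 array, Vcan without LIF, marker genes, AP-1 subunits, Tnf, Il6, Il1b and the cluster neighbours were added after their values were seen.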

Additional observations from a re-analysis of the deposited data

Results flagged for a closer look

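LIF differences of opposite sign in the 2 genotypes were found for Mmp13 and Mmp14. Timp2, at −0.42 in labelled knockout and −0.16 in wild type, was the only other member with a value or bound in both. The difference between genotypes was not tested, since each rests on 1 array per group. Mmp14 was higher with LIF in labelled knockout (1.53) and lower with LIF in wild type (−2.10), so the LIF difference in labelled knockout exceeded that in wild type by 3.63 log2 units (software error 0.40). That gap was 1.35 with normexp (offset 50), from 0.44 and −0.91, and 2.20 without an offset. Of 8045 genes measured on all 4 arrays, 16.7% had a LIF difference at least 1 log2 unit higher in labelled knockout than in wild type. A difference of differences as high as that of Mmp14 was found in 1.68%. Like Mmp14, 91 (1.13%) were at least 2-fold higher with LIF in labelled knockout and at least 2-fold lower in wild type. Mmp13 was not measured on all 4 arrays, so it has no place in these shares. Mmp13 was at 0.30 with LIF in labelled knockout and at a bound of −3.66 with LIF in wild type, a gap of 3.95 by that bound. The opposite sign did not hold for Mmp13 under normexp. With offset 50 it was at −0.59 in labelled knockout and at a bound of −2.14 in wild type, a gap of 1.55 by that bound. Without an offset it was at −1.09 and −2.99, a gap of 1.90. Both values rest on the LIF-treated wild-type array, which was unlike the rest.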

How the results depend on the processing

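No paired analysis was possible because each group has 1 array, and for the same reason no replicate could be left out. The members at least 2-fold higher and lower in labelled knockout under DSS numbered 2 and 1. They were 1 and 0 with normexp (offset 50), 1 higher with quantile scaling and with the authors' table (Timp3 fell just under the size counted), 4 higher with no background filter and 0 higher among genes measured on all 4 arrays, where fewer genes are tested. Under DSS and LIF 1 was higher and 0 lower, against 0 higher with either normexp setting and 4 higher and 1 lower with no background filter. For LIF in wild type 0 were higher and 1 lower, against 0 lower with normexp (offset 50) and 3 higher and 3 lower with no background filter. For LIF in labelled knockout 1 was higher and 0 lower, against 0 higher with either normexp setting and 2 lower with normexp without an offset. Without the filter all 10 genes are counted, most of them at background. For normexp the cause was not tested. Over all genes, 1387 higher and 725 lower between the genotypes without LIF became 322 and 840 with normexp (offset 50), 5878 and 2019 with no filter and 761 and 570 among genes measured on all 4 arrays. Between the genotypes with LIF 1181 and 2614 became 440 and 1194 with offset 50, 457 and 2836 without an offset and 3488 and 4411 with no filter. For LIF in wild type 3095 and 1226 became 759 and 1556 with offset 50 and 8816 and 3359 with no filter. For LIF in labelled knockout 315 and 301 became 6 and 863 with offset 50, 439 and 2347 without an offset, 2470 and 1163 with no filter and 207 and 230 among genes measured on all 4 arrays. The 8 member differences and bounds of 2-fold or more kept their sign in all 66 recomputed values, some of which could not change. They belong to Mmp13, Mmp14 and Timp3, with 1 probe of 1 spot each. For these differences and bounds the filters, outlier spots and mean over probes returned the reported value. Of 66 values of the 8 smaller ones 7 changed sign, namely Mmp13 (−0.59, −1.09) and Timp3 (0.15, 0.54) for LIF in labelled knockout with normexp with offset 50 and without, Timp2 between the genotypes with LIF with normexp without an offset (−0.48), and Timp2 with the mean over its probes without LIF (−0.39) and with it (−0.05). Signal over background limits every statement on Mmp2, Mmp3, Mmp10, Mmp11, Mmp12 and Timp1.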
